A study of Mus musculus with 5 samples.

Results

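The connecting tubule is the short stretch of distal nephron between the distal convoluted tubule and the collecting duct, and its nuclei were chosen by UMI counts of 13 genes (a UMI is one counted RNA molecule). A nucleus was a member when at least 200 genes were detected in it, when it held at least 3 UMIs summed over Slc8a1, Egfem1, Trpv5 and Calb1, and when that sum was larger than each of 3 other sums. Those were Slc12a3, Trpm6 and Abca13 for the distal convoluted tubule, Aqp2, Aqp4 and Fxyd4 for principal cells, and Slc12a1, Flt1 and Lama2 for thick limb, endothelium and fibroblasts. By this rule 604 of 16666 barcodes were members, and 16359 barcodes had 200 or more detected genes. The counts of these 13 genes chose the nuclei, so their levels are given as a description only.

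Nuclei came from kidneys of male mice aged 10 to 12 weeks that carried Six2-TGC, Rosa26rtTA and pTRE-H2BeGFP and ate doxycycline food (625 mg/kg) from soon after birth. In these animals a Six2-driven transgene, active in nephron progenitors, turns on a histone-bound green fluorescent protein (GFP), so nephron nuclei glow and collecting duct, stromal and immune nuclei should not. Sorted nuclei went into 5 droplet libraries, 1 for each group, so there were no replicates. One held GFP-negative nuclei without injury, labelled as non-nephron, and one held GFP-positive nuclei without injury. The other 3 were GFP-positive too and were taken at 64 h, 96 h or 28 d following ischaemia-reperfusion injury of both kidneys (IRI). Serum creatinine was 0.122 mg/dL for both libraries without injury, then 0.375, 0.312 and 0.144 mg/dL at 64 h, 96 h and 28 d, and blood urea nitrogen was 26.1, 37.0, 91.8 and 31.7 mg/dL. The labels read no injury but the series' design speaks of sham operation, so whether the reference animals were operated on is unclear. How many animals each library holds was not stated in the sources used here. Series of 5 values below run in the order GFP-negative, GFP-positive without injury, 64 h, 96 h and 28 d. All intervals are 95% intervals and cover counting error only.

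As background, connecting tubule cells take calcium up from the urine through the channel Trpv5, carry it on the calbindins Calb1 and S100g, and release it to the blood through the sodium-calcium exchanger Slc8a1 and the calcium pump Atp2b1, under parathyroid hormone and vitamin D. They also reabsorb sodium through the epithelial sodium channel, whose subunits are Scnn1a, Scnn1b and Scnn1g. Aldosterone drives that uptake through its receptor Nr3c2, and Hsd11b2 protects the receptor by inactivating glucocorticoids. The segment merges upstream into the distal convoluted tubule, where Slc12a3 takes up sodium chloride, and downstream into the collecting duct, whose principal cells move water through Aqp2.

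The members were counted as 250, 134, 89, 40 and 91 nuclei. They made up 7.49% (6.62 to 8.44) of the nuclei in the GFP-negative library and 3.82% (3.21 to 4.51) in the GFP-positive library without injury. After IRI the 64 h share was 2.95% with an interval of 2.38 to 3.62. The 96 h share was 1.25%, between 0.894 and 1.70, and the 28 d share 2.76%, between 2.23 and 3.38. The lowest share was thus at 96 h, and its interval did not overlap those of the other 4 libraries. That library was also the shallowest: the median member held 465.5 UMIs at 96 h, against 1248.5, 1494.5, 1050 and 1239 in the other libraries, and the median of the remaining nuclei was 508 UMIs against 936, 1800, 1297 and 980.5. When each nucleus was thinned to 500 UMIs, the shares were 6.15%, 3.14%, 2.17%, 1.09% (0.650 to 1.72) and 2.19%, so the 96 h interval then reached that of 64 h (1.67 to 2.76) and of 28 d (1.70 to 2.77). That thinning kept 1645 of the 3202 nuclei at 96 h. Sums over all members held 344848, 286535, 109208, 20435 and 131715 UMIs, and 0 UMIs of a gene left room for 8.70, 10.5, 27.5, 147 and 22.8 CPM (UMIs of the gene scaled to an equal total in each sum). No barcode of a member was shared between libraries.

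**Figure D1:**
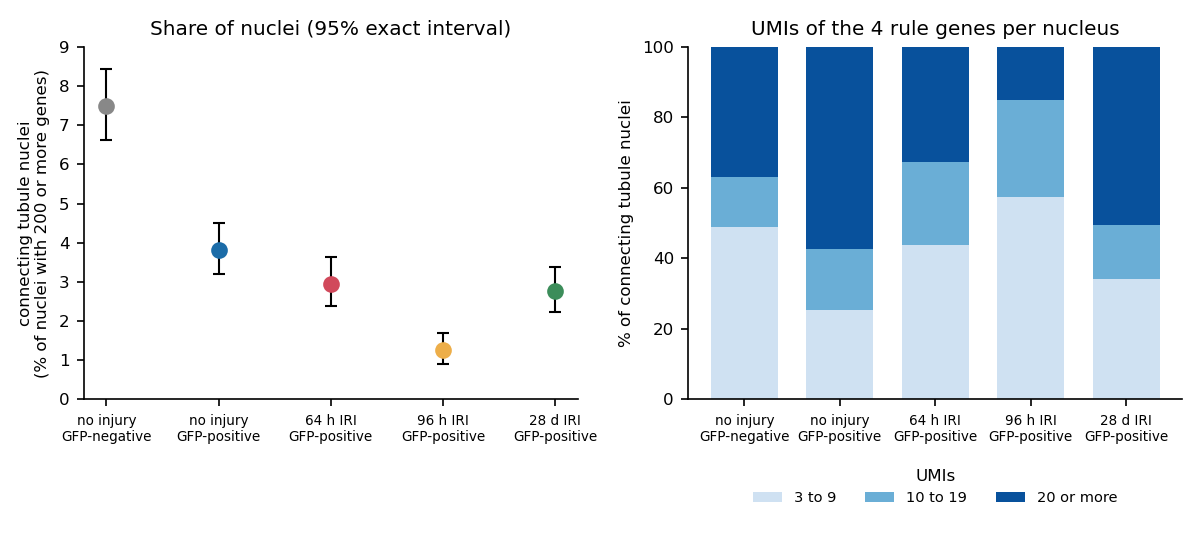
Left, share of connecting tubule nuclei among nuclei with 200 or more genes in each library (points, with 95% exact Clopper-Pearson intervals), from 7.49% in the GFP-negative library to 1.25% at 96 h. Right, percent of members (stacked bars) with 3 to 9, 10 to 19 and 20 or more UMIs of the 4 rule genes, the top class holding 57.5% of members in the GFP-positive library without injury and 15.0% at 96 h.

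Slc8a1 carried the choice. It gave between 84.8% (64 h) and 91.4% (GFP-negative) of the UMIs of the 4-gene sum, at levels of 25185, 25861, 17691, 18791 and 18153 CPM. Its UMIs were found in 96.6% to 100% of members and in 1.36% to 10.1% of proximal tubule nuclei, which should lack it. Proximal tubule nuclei were those with at least 3 UMIs over Lrp2, Slc5a12 and Slc34a1 and this sum larger than each sum of the rule. Their low share with Slc8a1 was thus partly set by that choice, as the high share of members was by the rule. Calb1 stood at 1201, 1162, 723, 538 and 501 CPM and Egfem1, a gene for a protein with EGF-like domains, at 1119, 1351, 2207, 1419 and 1230 CPM. Trpv5 was sparse at 37.7, 105, 229, 440 and 38.0 CPM, and its UMIs were in 4.80%, 16.4%, 22.5%, 15.0% and 4.40% of members. UMIs of a single rule gene admitted 118, 30, 31, 21 and 31 members. Just inside the threshold, 41, 3, 9, 5 and 8 members held exactly 3 UMIs, and just outside it 53, 15, 19, 13 and 15 nuclei held 2 and met the other conditions. Without Slc8a1 the rule would have kept 34, 37, 37, 9 and 26 nuclei, 1.02% of the GFP-negative library and 1.05% of the GFP-positive library without injury, so the shares on both sides of the sort were then alike.

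The members were a graded mixture. With 3 to 9 UMIs of the rule genes there were 122, 34, 39, 23 and 31 members, and with 20 or more there were 92, 77, 29, 6 and 46. The limits of these classes cut a continuous count and were chosen with the counts in view. In the GFP-negative library, Slc12a3 was at 88.6 CPM in the members with 3 to 9 UMIs and at 6110 CPM in those with 20 or more, and without injury in GFP-positive members at 39.8 and 4585 CPM. The rule itself holds Slc12a3 UMIs below the rule sum, so members with few UMIs could not carry many. The 12 distal convoluted tubule genes outside the rule followed the same order, at 2245 against 9146 CPM in the GFP-negative library, 2098 against 7091 CPM in GFP-positive members without injury, 2698 against 7071 CPM at 64 h and 1704 against 7170 CPM at 28 d. Hsd11b2 ran the other way, at 465 (357 to 595) CPM in the low and 170 (113 to 246) CPM in the high class of the GFP-negative library, and at 322 (176 to 541) against 110 (47.4 to 216) CPM at 28 d. Klk1, the tissue kallikrein made by connecting tubule cells, was at 133 CPM in the low and 700 CPM in the high class of GFP-negative members and at 69.1 against 494 CPM at 28 d. Scnn1b differed little between these classes, at 480 and 456 CPM in the GFP-negative library and 199 and 224 CPM in GFP-positive members without injury.

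**Figure D2:**
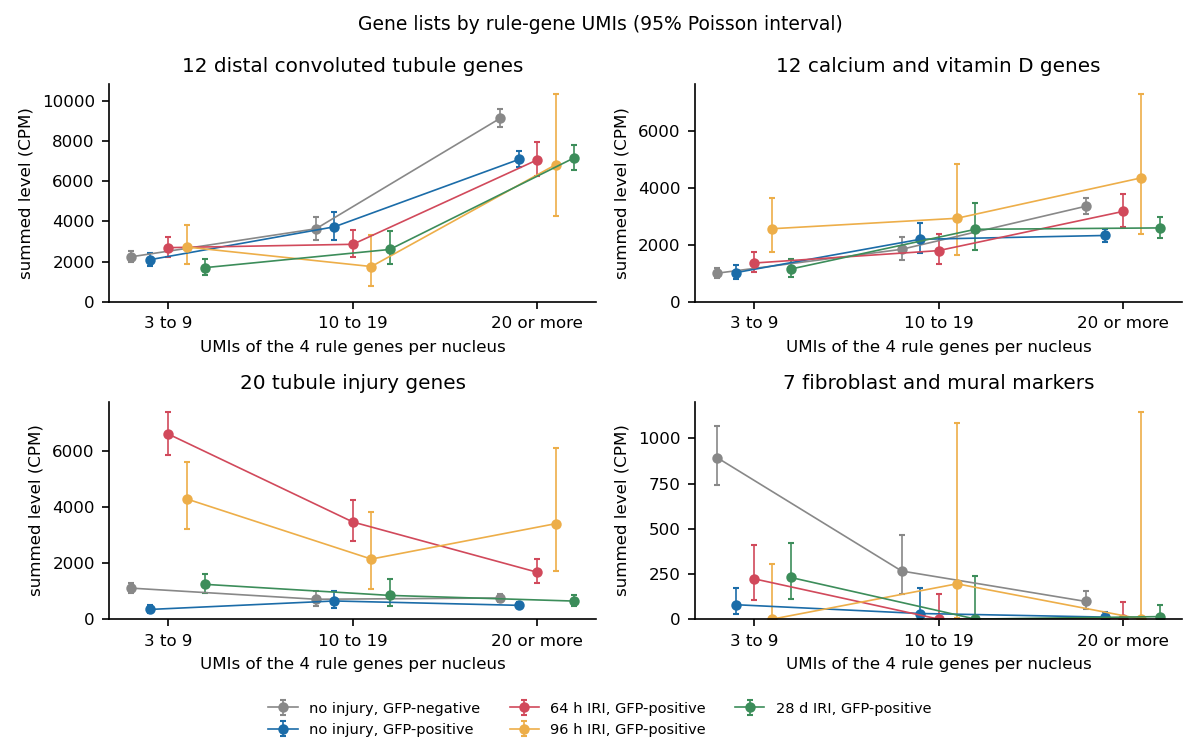
Summed level in CPM (vertical axes) of 4 gene lists in members with 3 to 9, 10 to 19 and 20 or more UMIs of the rule genes (horizontal axes), 1 colour per library, with 95% Poisson intervals. Distal convoluted tubule genes stand highest in the members with the most UMIs in each library, while the fibroblast and mural list is highest, at 893 CPM, in the GFP-negative members with the fewest.

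Markers of other cell types were counted in the members. Of the GFP-negative members, 19 of 250 (7.60%) held 3 or more UMIs of 7 fibroblast and mural markers, against 5.47% of the other nuclei there. In the GFP-positive libraries 1, 2, 0 and 1 members did. The smooth muscle genes Myh11 and Cald1 were at 185 and 421 CPM in GFP-negative members with 3 to 9 UMIs, and at 12.2 and 30.4 CPM in those with 20 or more. Intercalated cell markers reached 3 UMIs in 12, 6, 5, 0 and 4 members. Podocyte markers did in 23.6%, 37.3%, 22.5%, 0% and 25.3% of members, against 16.2%, 24.4%, 5.34%, 0.696% and 6.08% of other nuclei. Of these, Magi2 alone was at 1247, 1281, 1145, 538 and 957 CPM in members. Thick limb markers outside the rule reached 3 UMIs in 11.2%, 20.9%, 4.49%, 0% and 16.5% of members, against 17.5%, 15.8%, 13.7%, 2.09% and 8.17% of other nuclei. Proximal tubule transcripts were present in every sum and moved with the library: the summed level of 15 proximal tubule markers was 1238, 8142, 2619, 1860 and 9741 CPM in members and 5367, 16184, 10280, 10286 and 15553 CPM in all other nuclei. The part of free RNA, and of droplets with more than 1 nucleus, in these levels was not tested.

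To ask what separates connecting tubule nuclei from the segment just upstream, they were compared with distal convoluted tubule nuclei of the same libraries, chosen by the mirrored rule on Slc12a3, Trpm6 and Abca13 (139, 71, 98, 59 and 52 nuclei). Scnn1b, Hsd11b2 and the calbindin gene S100g were among the genes higher in the connecting tubule nuclei, and Egf, Erbb4 and Trpm7 among those lower. Sums per library were compared with edgeR's quasi-likelihood test with the library as a block, leaving out the 13 rule genes. The standard error (SE) printed beside a log2 fold is approximate. It was worked back from the fold and the test's F statistic and is no separate measure of spread. Of 2434 genes tested, 103 (4.23%) were higher and 98 (4.03%) lower at a Benjamini-Hochberg adjusted p under 0.05, and 408 had an unadjusted p under 0.05. Both classes were defined by counts in the same nuclei, so the test measures how steady a difference was over libraries and is no independent check of the label. The counts depended on the GFP-negative library, without which 65 and 53 genes passed, and on the block, without which 35 and 16 passed.

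Kif26b, a kinesin-family gene of kidney development, had the largest fold, with a log2 fold of 5.42 (SE 0.402, edgeR adjusted p = 1.221e-11). Its level in connecting tubule nuclei was 394, 223, 458, 489 and 213 CPM, against 15.3, 6.30, 0, 0 and 0 CPM in distal convoluted tubule nuclei. Kif26b was thus higher in connecting tubule nuclei in every library, which its choice required. Each class has a single sum per library, so overlap within a library could not be tested. The scaffold gene Frmpd4 stood at 1644, 649, 1502, 881 and 524 CPM against 30.7, 113, 69.2, 0 and 33.1 CPM (log2 fold 4.13), and Bmpr1b, a receptor for bone morphogenetic proteins, at 818, 380, 833, 294 and 266 CPM against 46.0, 37.8, 0, 0 and 66.3 CPM (log2 fold 4.06). Slc2a9, a urate transporter of the glucose transporter family, had a log2 fold of 3.52, the calcium channel subunit gene Cacnb2 3.00 and the cyclic AMP phosphodiesterase gene Pde8b 3.12. The other genes among the 12 with the largest folds were AI838599, Tmem45b, the engulfment adaptor gene Gulp1 and Abr, with log2 folds between 3.11 and 3.41. All 12 were higher in 5 of 5 libraries, which the choice of these genes required.

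The opposite end was led by Egf, the epidermal growth factor gene of the thick limb and distal convoluted tubule, with a log2 fold of -2.93 (SE 0.256, edgeR adjusted p = 2.262e-10). Egf stood at 287, 356, 82.4, 48.9 and 577 CPM in connecting tubule nuclei and at 4548, 2689, 796, 59.2 and 1657 CPM in distal convoluted tubule nuclei. The gap was wide in 4 libraries and nearly closed at 96 h, where the sums held 1 and 2 Egf UMIs. Without the library block Egf, Sytl2, Umod and Gpc3 did not pass. Erbb4, a receptor of the same family as that for Egf, was at 580, 349, 531, 391 and 866 CPM against 3961, 2582, 5476, 2958 and 1905 CPM (log2 fold -2.63). Trpm7, which forms a magnesium channel with the rule gene Trpm6, was at 415, 436, 357, 196 and 311 CPM against 2049, 1348, 2145, 799 and 961 CPM (log2 fold -2.08). Umod, the thick limb gene for uromodulin, had a log2 fold of -1.74, the prostaglandin F receptor gene Ptgfr -2.63, the neurexin gene Nrxn3 -2.63 and the fibroblast growth factor family gene Fgf13 -2.01. The remaining 5 were Sytl2, Dcdc2a, Gm16685, Gcnt2 and the glypican gene Gpc3, between -2.14 and -1.54.

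**Figure D3:**
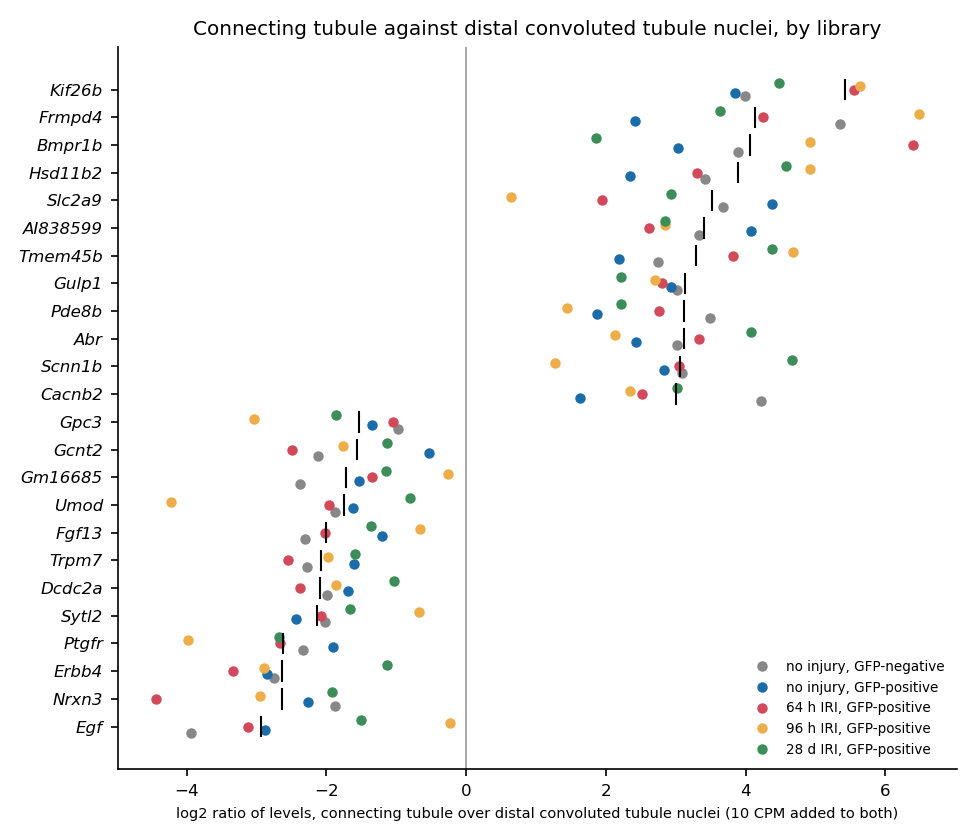
Log2 ratio of the level in connecting tubule to that in distal convoluted tubule nuclei (horizontal axis, 10 CPM added to both) for the 24 genes with the largest folds, 1 point per library and a black bar at the log2 fold fitted by edgeR. All points of the 12 upper genes lie right of 0 and all points of the 12 lower genes left of it, by the rule that chose them, and Egf at 96 h lies closest to 0 among the Egf points.

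In the list of 14 genes of the sodium channel and aldosterone response, 9 were tested, of which 4 were higher and 2 lower, and the median log2 fold was -0.01, the same to 2 decimals as the -0.01 of all tested genes. The sodium channel subunit gene Scnn1b (chromosome 7, 121865038 to 121918514) stood at 464, 241, 357, 440 and 243 CPM in connecting tubule and at 46.0, 25.2, 34.6, 177 and 0 CPM in distal convoluted tubule nuclei, a log2 fold of 3.06 (SE 0.302, edgeR adjusted p = 2.761e-09). Hsd11b2 (chromosome 8, 105518755 to 105523988) was at 316, 136, 174, 294 and 228 CPM against 20.4, 18.9, 8.65, 0 and 0 CPM, a log2 fold of 3.88 (SE 0.392, edgeR adjusted p = 4.428e-09). The receptor gene Nr3c2 was at 1415, 1232, 1044, 1028 and 774 CPM against 828, 434, 441, 325 and 315 CPM (log2 fold 1.18), and Nedd4l, whose ubiquitin ligase removes the channel from the membrane, had a log2 fold of 0.73. All 4 were higher in every library. Scnn1a was not separated, with 255, 178, 174, 97.9 and 182 CPM against 312, 164, 156, 207 and 82.8 CPM and a log2 fold of -0.01 (SE 0.225, edgeR adjusted p = 0.998). Fxyd2, whose protein tunes the sodium pump, was lower in every library, with a log2 fold of -0.77. Scnn1g was too sparse to be tested: it had 200, 69.8, 320, 489 and 106 CPM in connecting tubule nuclei, and in distal convoluted tubule nuclei 1, 0, 2, 1 and 0 UMIs.

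Scnn1g and Scnn1b are neighbours on chromosome 7, both on the plus strand, with 96562 bases between the end of the first and the start of the second. In the GFP-negative library both were at higher levels in connecting tubule than in principal cell and distal convoluted tubule sums, so the 250 bases before each start are shown, from RefSeq on GRCm38.p6, plus strand, 5′ to 3′. Kl, the gene of klotho, a co-receptor of a phosphate-regulating hormone, was also higher in connecting tubule nuclei and is added, after its window had been seen, because it holds a match. The windows were searched on both strands for AGAACA, the half-site of steroid receptors such as that of aldosterone, and for AGATAA, a letter run that GATA factors bind; the motifs do not overlap and capitals mark a match.
Scnn1g, chr7:121734229-121734478: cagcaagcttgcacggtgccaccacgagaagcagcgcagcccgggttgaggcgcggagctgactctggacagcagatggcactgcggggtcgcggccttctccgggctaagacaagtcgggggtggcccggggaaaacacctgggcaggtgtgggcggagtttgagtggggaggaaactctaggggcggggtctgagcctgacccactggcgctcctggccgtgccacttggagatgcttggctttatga
Scnn1b, chr7:121864788-121865037: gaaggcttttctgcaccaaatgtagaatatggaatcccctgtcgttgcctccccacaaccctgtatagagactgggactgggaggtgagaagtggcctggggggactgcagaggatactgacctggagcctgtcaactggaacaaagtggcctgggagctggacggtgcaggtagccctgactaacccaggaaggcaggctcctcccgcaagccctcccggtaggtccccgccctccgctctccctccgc
Kl, chr5:150952357-150952606: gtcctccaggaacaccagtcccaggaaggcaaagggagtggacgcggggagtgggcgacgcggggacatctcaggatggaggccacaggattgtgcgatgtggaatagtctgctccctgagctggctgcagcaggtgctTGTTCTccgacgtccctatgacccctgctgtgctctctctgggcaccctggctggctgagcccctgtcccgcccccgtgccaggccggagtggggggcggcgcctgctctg
Neither motif was found before Scnn1g or Scnn1b, and Kl held 1 steroid receptor half-site on the minus strand, so that its capitals read TGTTCT. Of 32851 such windows in the table, 16.1% held AGAACA and 9.99% held AGATAA. One window could be matched to 82 of the 103 genes higher in connecting tubule nuclei, of which 13.4% held AGAACA and 3.66% AGATAA, and to 1875 tested genes, of which 8.43% and 3.84% did. Among the 98 genes lower in connecting tubule nuclei, 75 had a window, of which 8.00% held AGAACA and 6.67% AGATAA. These are counts of letters in short windows and say nothing of binding.

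Of the 12 calcium and vitamin D genes, 7 were tested, 4 were higher and 0 lower, and the median log2 fold was 0.78. S100g, the second calbindin, was at 238, 202, 165, 294 and 228 CPM in connecting tubule and at 0, 44.1, 8.65, 29.6 and 99.4 CPM in distal convoluted tubule nuclei, a log2 fold of 2.90 (SE 0.406, edgeR adjusted p = 3.103e-06). Klk1 was at 473, 164, 275, 391 and 326 CPM against 123, 56.7, 104, 148 and 0 CPM (log2 fold 1.85), Kl at 597, 593, 522, 930 and 562 CPM against 179, 176, 173, 118 and 431 CPM (log2 fold 1.49), and the vitamin D receptor gene Vdr at 374, 447, 394, 391 and 357 CPM against 256, 239, 147, 207 and 265 CPM (log2 fold 0.78). Every library showed each of these 4 higher, though Vdr lost its call without the 64 h or the GFP-positive library without injury, and with DESeq2. The calcium pump gene Atp2b1 had a log2 fold of -0.36 (SE 0.219, edgeR adjusted p = 0.443) and the parathyroid hormone receptor gene Pth1r 0.11 (SE 0.238, edgeR adjusted p = 0.897). No direction could be given for either.

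Among 13 tested segment transcription factors of 24 listed, 3 were higher and none was lower, with a median log2 fold of -0.01. Gata3, a factor of the collecting duct system, had a log2 fold of 1.36, Pax2, a kidney developmental factor, 0.92, and Tfcp2l1, a factor of distal nephron and collecting duct cells, 0.73, each higher in 5 of 5 libraries. Pax2 lost its call without the GFP-negative or the 96 h library, and Tfcp2l1 without the GFP-positive library without injury. Of the 12 distal convoluted tubule genes, 11 were tested and 6 were lower, none higher. Besides Egf and Erbb4 these were Klhl3, which marks WNK kinases for degradation (log2 fold -1.09), the monocarboxylate transporter gene Slc16a7 (-1.19), Wnk1 (-0.51) and Wnk4 (-0.74, lower in 4 of 5 libraries). Wnk1 and Wnk4 lost their calls without the GFP-negative, the GFP-positive uninjured or the 64 h library, and Wnk1 also without the 28 d library. Among principal cell genes, 5 of 10 were tested: the extracellular matrix gene Npnt (log2 fold 2.36) and the ammonia transporter gene Rhcg (1.68, higher in 4 of 5 libraries) were higher, and Fxyd2, also on the sodium list, was lower. The potassium and chloride channel list had 5 tested genes and none passed, with Kcnj1, the potassium secretion channel, at a log2 fold of -0.64 (SE 0.220, edgeR adjusted p = 0.0746). Slc26a4, the chloride-bicarbonate exchanger of intercalated cells, was the 1 tested gene of 12 intercalated markers and was higher, with a log2 fold of 1.42 in 4 of 5 libraries; intercalated markers in members are counted above. Of 20 tubule injury genes 4 were tested and 2 passed. These were Clu and Krt7, higher in every library (log2 folds 1.15 and 1.20), though Clu was nearly level in the GFP-negative library (107 against 102 CPM). Krt7 lost its call without the 64 h library. Spp1 and Cp had log2 folds of -0.34 and -0.27 and did not pass (edgeR adjusted p = 0.486 and 0.832).

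Principal cell nuclei could be set beside the members in the 2 libraries without injury, with 261 and 35 nuclei. After IRI there were 0, 3 and 2, so no test across libraries was made. In the GFP-negative library connecting tubule sums were higher in S100g, Klk1 and Kl and in the sodium channel subunits, and principal cell sums in the vasopressin receptor gene Avpr2. In the GFP-negative library S100g was at 238 (189 to 295) against 49.7 (29.9 to 77.6) CPM, Klk1 at 473 (403 to 551) against 26.2 (12.5 to 48.1) CPM and Kl at 597 (519 to 685) against 31.4 (16.2 to 54.8) CPM. Scnn1b was at 464 (395 to 542) against 170 (131 to 217) CPM, Scnn1g at 200 (156 to 253) against 81.1 (55.1 to 115) CPM and Scnn1a at 255 (205 to 314) against 60.2 (38.1 to 90.3) CPM. In the GFP-positive library the same 3 subunits were at 241 against 62.7 CPM, 69.8 against 26.9 CPM and 178 against 8.96 CPM, and only the intervals of Scnn1g overlapped, 42.6 to 108 against 5.54 to 78.6 CPM. Hsd11b2 did not differ beyond counting error in either library, at 316 (260 to 381) against 277 (227 to 335) CPM and at 136 (96.8 to 186) against 98.6 (49.2 to 176) CPM. Avpr2 was lower in connecting tubule sums, at 81.2 (54.0 to 117) against 248 (201 to 304) CPM and 38.4 (19.2 to 68.7) against 152 (88.7 to 244) CPM.

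**Figure D4:**
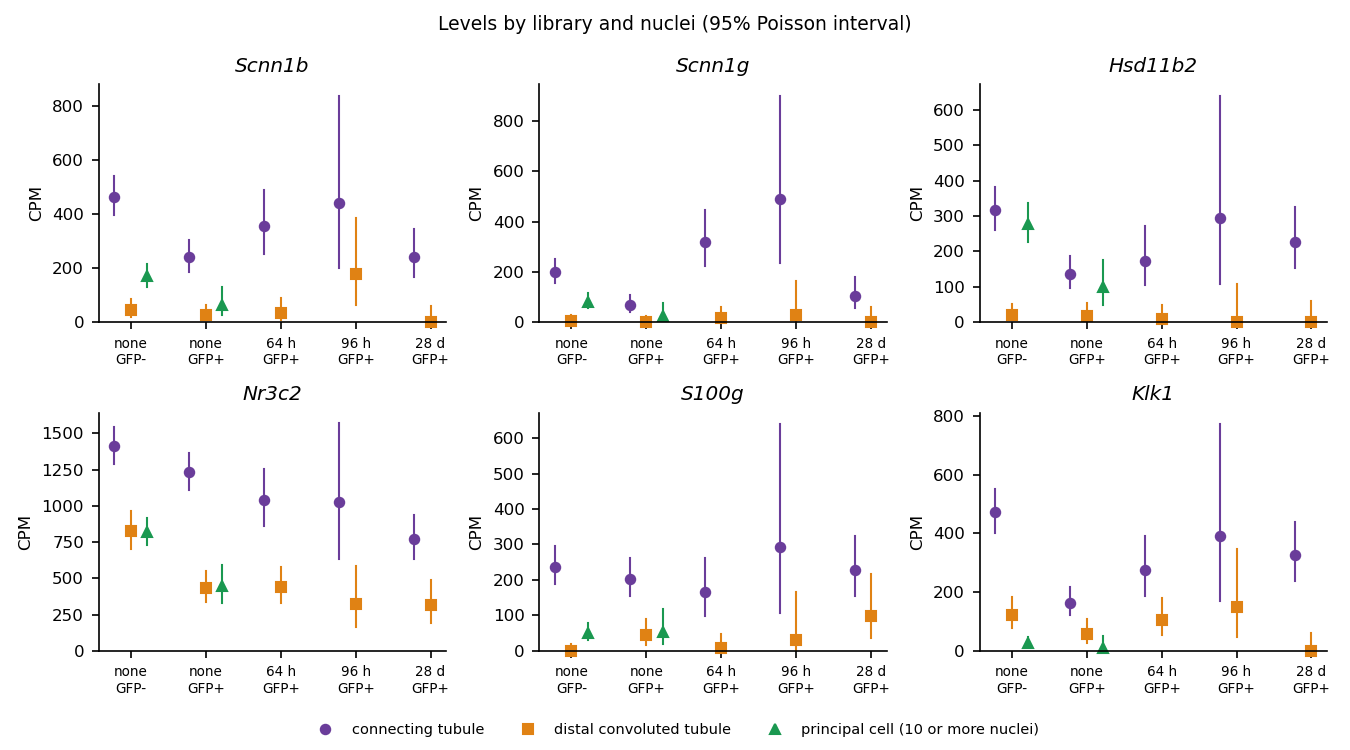
Levels in CPM (vertical axes) of 6 genes in connecting tubule, distal convoluted tubule and principal cell nuclei by library (horizontal axes: injury time and GFP sort), with 95% Poisson intervals; principal cells are shown where a library held 10 or more. Scnn1b, Nr3c2, S100g and Klk1 stand higher in connecting tubule than in both other classes in the libraries without injury, whereas Hsd11b2 is at similar levels in connecting tubule and principal cell nuclei.

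Shares of nuclei with a UMI were also compared at equal depth. Scnn1b was found in 26.4% to 38.8% of members outside the 96 h library and in 8 of 40 there, and after thinning to 500 UMIs in 20.4%, 17.9%, 16.5%, 15.8% and 15.7%. Proximal tubule nuclei, which should lack it, had 0.604%, 0.0393%, 0.175% and 0.317% after thinning outside the 96 h library, and 0% (up to 0.622%) at 96 h. Nr3c2 was found after thinning in 42.1%, 52.2%, 44.7%, 26.3% and 36.1% of members and in 3.21% to 6.34% of proximal tubule nuclei. The thinned values left out 10, 0, 4, 21 and 8 members and at 96 h rest on 19 nuclei.

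The GFP sort was read from both libraries without injury, which share their serum values. Connecting tubule nuclei were found on both sides of the sort. GFP-negative members carried more transcript of 4 segment factors and 3 principal cell genes, and less proximal tubule transcript. Of 7 fibroblast and mural markers 2 were measured, the smooth muscle genes Myh11 and Cald1, both higher. Myh11 had no UMI in GFP-positive members, so it was measured only through its GFP-negative UMIs and could not have been lower. Among 3860 genes with at least 30 UMIs over both sums, 281 (7.28%) lay 2-fold or more above in GFP-negative members and 352 (9.12%) as far below, and for 256 and 341 of them the counting interval left out a ratio of 1. Of 24 segment transcription factors, 18 were measured and 4 were past 2-fold, all higher: Gata3, 2.06-fold (1.42 to 3.02), Pax2, 2.12-fold (1.44 to 3.17), Gata2, 2.38-fold (1.30 to 4.62) and Tfap2a, 2.17-fold (1.12 to 4.49). Without Slc8a1 in the rule Gata2 turned to a log2 ratio of -1.02, from 5 against 11 UMIs. In all other nuclei Gata3 was 10.9-fold and Pax2 1.77-fold higher. Klk1 was 2.88-fold (2.07 to 4.08) higher and was 1 of 2 genes past 2-fold among 9 measured on the calcium list, whose median log2 ratio was 0.01. Scnn1g, 2.87-fold (1.72 to 4.98) higher, and Hsd11b2, 2.32-fold (1.60 to 3.44) higher, were the 2 past 2-fold among 12 measured on the sodium list. The median log2 ratio of that list was 0.24. Of 9 measured principal cell genes 3 were past 2-fold, all higher. Their median log2 ratio was 0.64, against 0.01 for all measured genes. UMIs of Aqp2, Aqp4 or Fxyd4 were in 45.2% of GFP-negative and 32.1% of GFP-positive members, and 48.8% and 25.4% held 3 to 9 rule UMIs. The part of this mixture in the ratios was not tested.

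The highest ratios between the GFP classes included genes of smooth muscle. Pde3a, a cyclic nucleotide phosphodiesterase gene of smooth muscle and vessels, had 133 against 3 UMIs, 36.8-fold higher (12.3 to 181), and Prkg1, the cyclic GMP kinase gene of smooth muscle, 214 against 8 UMIs, 22.2-fold (11.1 to 52.1). The developmental factor gene Meis2 was 37.4-fold (10.1 to 313) and Gpc6 24.9-fold (8.26 to 123) higher, and Mgat4c 12.2-fold (7.86 to 20.04). Slit3, Csmd1 and Cacna2d1 had no UMI in GFP-positive members and were at least 11.9, 11.4 and 9.97-fold higher, against 3 counts of that sum. Myh11 had 31 UMIs against 0 and Cald1 was 14.3-fold higher. Like Slit3, Csmd1 and Cacna2d1, Myh11 was measured only through the GFP-negative sum. Pde3a and Prkg1 were 17.1- and 15.4-fold higher in all other nuclei. With members of 3 or more UMIs of stromal or immune markers left out, Prkg1 had 71 against 5 UMIs (12.98-fold) and Pde3a 57 against 0. With at least 10 UMIs of the rule genes, they had 39 against 4 and 17 against 0 UMIs, so most of their UMIs were in members with few. At the other end stood Lrp2, Dab2, Slc5a12 and Slc13a1, genes of proximal tubule uptake and transport, with ratios of 0.0620, 0.0622, 0.0207 and 0.0284, followed by Clec2h, Bnc2, Gm20400 and Slc16a14, the last with 0 against 35 UMIs. Of 12 measured proximal tubule markers 11 were past 2-fold lower.

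The IRI libraries were each set against the GFP-positive library without injury, which all 3 comparisons share. At 64 h, the injury genes Clu, Spp1 and Krt7 and the lysosomal protease gene Ctsd were higher in connecting tubule nuclei, and proximal tubule transcripts were lower. On the calcium list 1 of 7 measured genes was past 2-fold and on the sodium list 1 of 11, both higher. Past 2-fold, 196 (7.71%) of 2542 measured genes were higher and 258 (10.1%) lower, with intervals clear of 1 for 185 and 207. The trimmed-mean (TMM) scaling moved the median log2 ratio of all measured genes from 0.07 to -0.19 and the counts to 90 and 394. All 3 measured genes of the 20 tubule injury genes were past 2-fold, all higher. Clu, the secreted chaperone clusterin, stood at 83.8 CPM without injury and 1438 CPM at 64 h, 17.2-fold (11.1 to 27.6) higher, and at 1811 CPM at 96 h and 228 CPM at 28 d, against 107 CPM in GFP-negative members. In all other nuclei it was 10.7-fold (8.40 to 13.8) higher at 64 h. Spp1, the gene of osteopontin, was 7.72-fold (5.62 to 10.8) and the simple-epithelium keratin gene Krt7 3.76-fold (2.14 to 6.71) higher. The Clu ratio differed between classes of members: in those with at least 10 it was 8.20-fold, from 50 against 20 UMIs, and in those with at most 19 it was 20.6-fold, from 136 against 10. The summed level of the 20 injury genes at 64 h was likewise 6623 CPM in members with 3 to 9 rule UMIs and 1676 CPM in those with 20 or more, against 345 and 492 CPM without injury.

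The lysosomal protease gene Ctsd was 10.2-fold (6.11 to 17.9) higher at 64 h in connecting tubule nuclei and 3.41-fold in all other nuclei, and the cytoskeletal actin genes Actb and Actg1 were 8.45-fold (3.90 to 20.3) and 7.50-fold (3.99 to 14.9) higher. In distal convoluted tubule nuclei the ratio was 6.74 (3.49 to 14.3) for Ctsd and 1.68 (0.633 to 4.58) for Actg1, with intervals overlapping those of connecting tubule nuclei. The largest ratio was that of Mid1, a microtubule-binding ubiquitin ligase gene on chromosome X (169685199 to 170005736). Mid1 was at 174, 143, 3635, 97.9 and 1397 CPM, so it was high at 64 h and 28 d but not at 96 h, and it followed the same course in all other nuclei, at 197, 168, 2988, 130 and 1750 CPM. The melanocortin receptor accessory gene Mrap2 was 17.1-fold (8.71 to 37.2) and the cytoskeletal kinase gene Peak1 6.17-fold (4.22 to 9.16) higher, with 11.9-fold and 8.05-fold in all other nuclei. Scnn1g was 4.59-fold (2.58 to 8.39) higher, the 1 gene of 11 measured on the sodium list past 2-fold, and of the calcium list the pump gene Atp2b4 was 2.30-fold (1.22 to 4.30) higher, the 1 of 7. Scnn1g and Atp2b4 held 20 and 24 UMIs without injury, so they too were measured only with their 64 h UMIs. The developmental factor genes Pax8 (3.32-fold, 2.45 to 4.52), Pax2 (2.21-fold, 1.34 to 3.63) and Prdm16 (2.08-fold, 1.45 to 2.98) were also past 2-fold.

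On the falling side at 64 h, Egf had a ratio of 0.232 (0.103 to 0.457) and Slc26a4 of 0.363 (0.159 to 0.733). Without Slc8a1 in the rule Slc26a4 had 1 UMI in each sum and a log2 ratio of 0.14. The 8 genes furthest below were Keg1 (0.107, 0.0755 to 0.147), Slc7a13, RP24-362L9.2, Cyp7b1 and Slc22a30, and Slc7a7, Slc5a2 and Acsm3 with 0 UMIs, at least 6.10-, 5.97- and 4.70-fold lower. Slc5a2 is the proximal tubule glucose transporter and Slc7a7, Slc7a13 and Slc22a30 are transporters of that segment too. Keg1 had a ratio of 0.236 and Slc7a13 of 0.348 in proximal tubule nuclei themselves, and 11 of 12 measured proximal tubule markers were past 2-fold lower in the members.

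At 96 h the sum of 40 nuclei held 20435 UMIs, and ratios there are the least certain. Of 1895 genes measured, 184 (9.71%) were past 2-fold higher and 671 (35.4%) lower, but the counting interval was clear of 1 for 90 and 133, and the median log2 ratio of all measured genes was -0.34. With TMM scaling that median was -1.14 and the counts were 35 and 1095. Ctsd, at 66.3 CPM without injury and 1713 CPM at 96 h, was 25.8-fold (14.4 to 47.8) higher against 5.57-fold in all other nuclei, and Clu 21.6-fold (12.6 to 37.8) against 16.5-fold. The surface protein gene Ly6a, the transcription factor gene Camta1, Krt7 and the metallothionein gene Mt1 were 8.29-, 7.24-, 6.71- and 6.71-fold higher, each on 11 to 16 UMIs. Scnn1g had 10 UMIs against 20 and was 7.01-fold (2.93 to 15.7) higher, and Wnk4, a kinase that sets sodium chloride transport, 22 against 64 UMIs and 4.82-fold (2.83 to 7.93). With fewer UMIs at 96 h Scnn1g would not have been measured. In distal convoluted tubule nuclei the ratio was 12.8 (6.24 to 28.3) for Ctsd, 4.34 (1.81 to 10.3) for Ly6a and 1.83 (1.08 to 3.01) for Wnk4. These intervals overlap those of connecting tubule nuclei. Pth1r was 3.89-fold (2.04 to 7.003) higher in the members. Of 11 measured distal convoluted tubule genes 7 were past 2-fold lower, of which Wnk1 (0.349, 0.199 to 0.572), Sgms2 (0.135, 0.0162 to 0.493), Egf (0.137, 0.00345 to 0.783) and Klhl3 (0 against 85 UMIs) had intervals below 1. Below them in rank were Fut9 (1 against 534 UMIs), Keg1, Plcb1 and Slc25a21, and RP24-362L9.2, Slc5a12, Slc27a2 and Gramd1b with 0 UMIs. At this depth 6 of the 40 members held 20 or more rule UMIs, and the distal convoluted tubule list was highest in that class in each of the 5 libraries. The part of depth in the lower distal convoluted tubule levels was not tested.

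**Figure D5:**
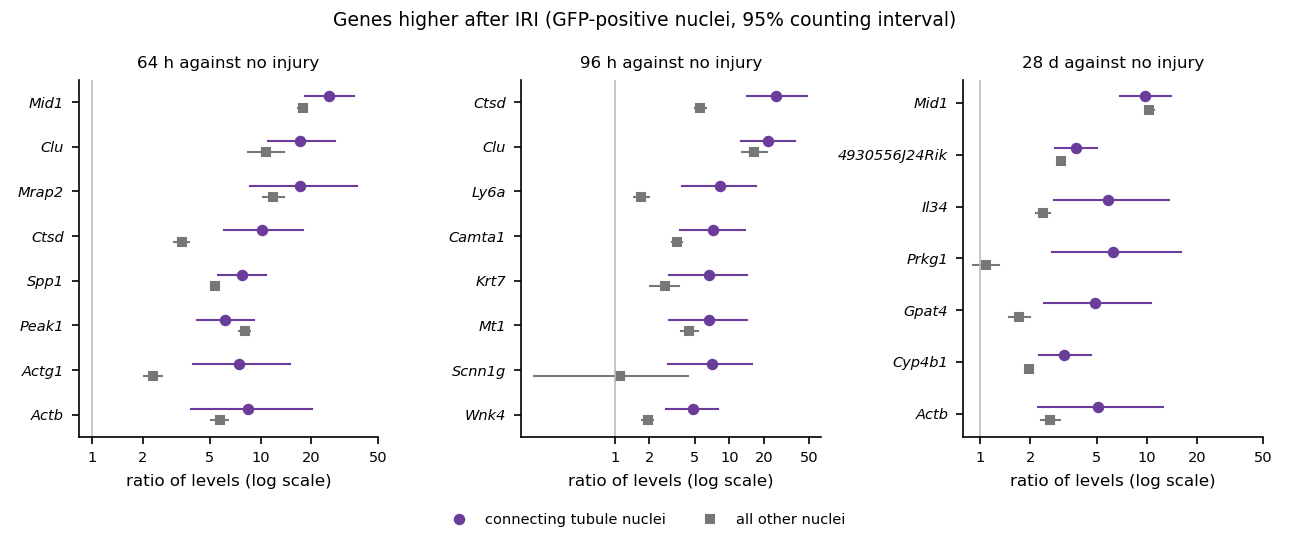
Ratio of the level after IRI to that without injury (horizontal axes, log scale) in connecting tubule nuclei and in all other nuclei of the GFP-positive libraries, for the genes with the highest lower interval bound at each time (8 at 64 h and 96 h, 7 at 28 d), with 95% counting intervals. Ctsd and Actg1 at 64 h, Ctsd, Ly6a and Wnk4 at 96 h and Il34, Prkg1, Gpat4 and Cyp4b1 at 28 d have intervals above those of the other nuclei, while the intervals of Mid1 and Clu overlap those of the other nuclei wherever they are shown. In distal convoluted tubule nuclei, which are not drawn, the intervals of all these genes but Prkg1 overlap those of connecting tubule nuclei.

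At 28 d Mid1, Prkg1 and Il34 had the highest ratios to the library without injury, and Pappa, Slc16a14 and 3 phosphodiesterase genes were among the lowest. Of 2702 genes measured, 130 (4.81%) were higher and 103 (3.81%) lower past 2-fold, with intervals clear of 1 for 120 and 73. TMM scaling moved the median log2 ratio from 0.03 to -0.15 and the counts to 74 and 190. None of 7 measured calcium genes, 12 sodium genes, 5 channel genes and 12 proximal tubule markers was past 2-fold in either direction. Erbb4 was 2.48-fold (1.88 to 3.28) higher, against 1.22-fold in all other nuclei, and Clu was 2.72-fold (1.54 to 4.86) higher. Il34, a cytokine gene whose protein supports macrophages, was at 40.6, 34.9, 110, 0 and 205 CPM, 5.87-fold (2.76 to 13.6) higher at 28 d, and 2.40-fold in all other nuclei. In distal convoluted tubule nuclei the Il34 ratio at 28 d was 2.63 (1.03 to 6.69). In connecting tubule nuclei Il34 was 4.41-fold higher, from 20 against 10 UMIs, without members that held stromal or immune transcripts. Cyp4b1 was 3.20-fold (2.25 to 4.60), 4930556J24Rik 3.74-fold (2.79 to 5.04), Gpat4, a lipid synthesis gene, 4.89-fold (2.40 to 10.6) and Actb 5.08-fold (2.23 to 12.6) higher. Without Slc8a1 in the rule Actb had 2 against 4 UMIs and a log2 ratio of -0.0541. Prkg1 was 6.25-fold (2.70 to 16.2) higher, on 23 against 8 UMIs.

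Genes of 3 cyclic nucleotide phosphodiesterases were among the 8 furthest below at 28 d. Pde10a was at 873, 408, 73.3, 147 and 68.3 CPM, a ratio at 28 d of 0.167 (0.0747 to 0.329). Pde7b was at 1337, 984, 357, 196 and 288 CPM (0.293, 0.203 to 0.412), and Pde3b at 612, 391, 311, 245 and 75.9 CPM (0.194, 0.0907 to 0.371). These genes were picked for their low ratios at 28 d, and the 3 IRI libraries share 1 reference. Their levels at 64 h and 96 h are therefore given as a description only. In all other nuclei the 28 d ratios were 0.691, 0.910 and 0.486. Pappa, the gene of a protease that cleaves binding proteins of insulin-like growth factors, followed at 992, 394, 238, 48.9 and 60.7 CPM, with a 28 d ratio of 0.154 (0.0649 to 0.314) against 0.653 in all other nuclei. In members with at least 10 rule UMIs the Pappa ratio was 0.306, from 6 against 47 UMIs, and the Pde10a ratio 0.132, from 5 against 91. Fth1, the gene of ferritin heavy chain, had a ratio of 0.357 (0.251 to 0.496) and Defb1, a defensin gene of the distal nephron, of 0.352 (0.229 to 0.524), with 0.451 and 0.521 in all other nuclei. Slc16a14 and Gm15810 had 1 and 6 UMIs against 35 and 79. With 1 library for each time, differences between animals and between injury times cannot be told apart.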

How the data were processed

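Single-nucleus RNA was counted in 5 sorted droplet libraries, 1 per group. The authors deposited counts of UMIs per gene and barcode, and per the submitters' processing notes bcl2fastq 2.17, STAR 2.5.1b and Cell Ranger 2.1 were used with mm10 in its pre-mRNA form. No doublet caller was run, and free RNA was not removed. Each nucleus was classed from the counts of 13 genes, and UMIs were summed over the members of each library and divided by the total (CPM). The members and the 24 gene lists were chosen with earlier results of these data known. Levels carry exact Poisson, ratios conditional Poisson and shares Clopper-Pearson intervals at 95%, which cover counting error only. With 1 library per group no test between groups was possible. A ratio past 2-fold was counted for genes with at least 30 UMIs over both sums. A gene with few UMIs in 1 sum was therefore measured only when the other sum held many. Log2 ratios had 10 CPM added, and a group at 0 was bounded by 3 counts of its sum. Connecting and distal convoluted tubule sums were compared with edgeR 4.0.16 (R 4.3.3; quasi-likelihood, library as block, checked on simulated data), with DESeq2 1.42.0 as an alternative. Libraries are separate samples, but the labels do not say how many animals each holds. Both libraries without injury share their serum values and may come from the same animals. The edgeR fit nevertheless counted them as separate blocks. Named genes were the 12 with the largest fold in each direction among those past an adjusted p of 0.05 and alike in all 5 libraries, and for ratios the 8 per direction whose interval bound was furthest from 1, besides list genes. Coordinates are from GENCODE M21 (GRCm38). A few results of single genes that this rule names are not reported here.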

Additional observations from a re-analysis of the deposited data

How the results depend on the processing

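Alternatives at a minimum of 10 or a maximum of 19 rule UMIs, and without members carrying stromal or immune transcripts, were chosen after seeing the data. The share of members was 5.48% (GFP-negative) with a minimum of 5 UMIs, and without Slc8a1 it was 1.02%, 1.05%, 1.23%, 0.281% and 0.788% in the usual order. With at least 400 genes it was 9.09% (GFP-negative) and 0.732% (96 h), and thinned to 500 UMIs 6.15%, 3.14%, 2.17% (64 h) and 2.19% (28 d). Against distal convoluted tubule nuclei, 68 genes were higher and 51 lower with DESeq2, 160 higher with no filter, 35 and 16 with no replicate block (no library block), 63 lower with at least 10 rule UMIs, and 65 to 133 higher and 53 to 125 lower when each library was left out. The percent of genes past 2-fold moved as follows. With TMM factors it was 3.54% higher and 15.5% lower at 64 h, 1.85% and 57.8% at 96 h, and 2.74% and 7.03% at 28 d. With genes of at least 10 UMIs the higher share was 13.6%, 20.1%, 10.8% and 13.4% (GFP classes), and the lower 8.94% at 28 d. With no minimum it was 23.6% and 28.4%, 24.4% and 55.8%, 24.2% and 24.4%, and 28.5% and 17.2%. Without Slc8a1 it was 5.76% higher at 96 h, 8.38% lower at 28 d and 3.80% higher between GFP classes, with at most 19 rule UMIs 7.88% lower at 28 d, and with at least 10 rule UMIs 4.49% higher between GFP classes. Of the 18 log2 ratios that changed sign, 17 are given here. Without Slc8a1 they were 0.14 for Slc26a4 (64 h), -4.46, 0.0837 and 0.63 for Hsd11b2, Pck1 and Sgk1 (96 h), -0.0541 and -1.16 for Actb and mt-Nd4 (28 d), and -0.61, -0.12 and -1.02 for Aqp3, Atp2b2 and Gata2 (GFP classes). At 96 h with at least 400 genes they were -0.0399, 0.39, -0.26, 0.25, -0.86 and 0.26 for Aldoa, Gpi1, Klk1, Pck1, Prdm16 and Sgk1, and with at least 10 rule UMIs 0.19 and 0.45 for Gpi1 and Sgk1. The cause was not tested. Of the gene results against distal convoluted tubule nuclei, 444 kept their direction and side of the threshold and 61 lost the call, 24 of them with no library block, Egf, Sytl2, Umod and Gpc3 among them. No paired analysis was possible because each group has 1 library, beyond the library block already used. Depth limits the 96 h values most.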
